A study of Arabidopsis thaliana with 5 samples.

Results

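Suberin and cutin are the lipid polyesters with which plants seal their outer tissues. A set of 34 genes for their synthesis, transport, polymerisation and regulation was followed in developing seeds of Arabidopsis thaliana, out of 37336 genes in the count table. The genes were chosen by gene identifier from their known roles, at a time when earlier results of these data were known. Of them, 21 act in the suberin branch, 11 in the cutin branch and 2 in both. RNA from whole seeds at 9 days after pollination was sequenced in 3 libraries of the mutant dof4.1-3 and 2 libraries of its background, wild type Col-0. In dof4.1-3 a T-DNA interrupts DOF4.1 (AT4G00940), which encodes a Dof-type transcription factor, and the line is a single insertion allele. The sample labels write the mutant as dof4-1, without the allele number. Whether the libraries came from separate plants is not given, so the p-values speak only of the scatter among the 5 libraries, which may be a technical one.

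Suberin is built from omega-hydroxylated fatty acids, dicarboxylic acids, fatty alcohols, glycerol and ferulate. It is laid down in the root endodermis, in the periderm and, in seeds, in the outer integument of the coat. Cutin shares much of this chemistry and forms the framework of the cuticle, on the epidermis of the plant and at the surfaces of the seed tissues. In both, acyl chains are elongated, oxidised, joined to glycerol inside the cell, carried out by ABCG transporters and polymerised in the wall. Arabidopsis mutants that lack them are known for seed coats that take up dyes more readily.

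The libraries held 20101091, 21722055 and 21053818 counts over genes in dof4.1-3 replicates 1, 2 and 3, and 16500028 and 17049283 counts in Col-0 replicates 1 and 2. Levels are given as CPM, counts scaled to a common library size by the TMM method, and CPM per kb of transcript where different genes are compared. DOF4.1 itself had 3, 4 and 4 counts in the dof4.1-3 libraries and 1 and 14 counts in the Col-0 libraries, which is too few to check the labels. Dof4.1-3 replicate 2 stood apart in its share of the 50 genes most abundant on average over all libraries, led by storage protein genes. These 50 took 41.2% of the counts of replicate 2, against 28.4% and 34.3% in the other dof4.1-3 libraries and 27.8% and 20.8% in Col-0. Of the 34 genes, 23 passed the filter on low counts (at least about 10 counts in at least 2 libraries) and were tested, 13 in the suberin branch, 8 in the cutin branch and both shared genes. Another 8 had some counts but did not pass, and 3 had no count in any library.

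Promoter sequences of 4 members are shown as examples, because the altered gene encodes a Dof protein and Dof proteins bind DNA at the core AAAG. ABCG6 had the largest fitted change of the 23 tested genes and CYP86A2 the smallest p-value. GPAT5 and MYB9, which were not tested, stand for genes with their highest level in the same library as ABCG6, and were not the only ones (ASFT, FAR1, FAR4, ABCG20, MYB107, GPAT4, GPAT6 and LACS2 were others). The 4 were picked after their values were seen. Each sequence holds the 250 bases before the annotated start of the gene in RefSeq TAIR10.1, read 5′ to 3′ on the strand of the gene, with AAAG and its reverse complement CTTT in capitals. The windows are chr5:4370442-4370691 (ABCG6), chr3:3595444-3595693 (GPAT5), chr5:5514467-5514716 (MYB9) and chr4:160393-160642 (CYP86A2), all on the plus strand.
ABCG6: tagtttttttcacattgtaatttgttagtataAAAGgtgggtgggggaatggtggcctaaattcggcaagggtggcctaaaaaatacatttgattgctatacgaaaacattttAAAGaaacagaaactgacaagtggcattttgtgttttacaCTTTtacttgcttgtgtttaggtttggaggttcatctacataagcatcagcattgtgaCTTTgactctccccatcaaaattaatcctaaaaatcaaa
GPAT5: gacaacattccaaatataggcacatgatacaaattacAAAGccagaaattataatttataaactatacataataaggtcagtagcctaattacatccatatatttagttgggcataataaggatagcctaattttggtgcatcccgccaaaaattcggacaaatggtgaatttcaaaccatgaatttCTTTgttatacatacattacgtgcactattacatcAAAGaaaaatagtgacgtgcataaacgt
MYB9: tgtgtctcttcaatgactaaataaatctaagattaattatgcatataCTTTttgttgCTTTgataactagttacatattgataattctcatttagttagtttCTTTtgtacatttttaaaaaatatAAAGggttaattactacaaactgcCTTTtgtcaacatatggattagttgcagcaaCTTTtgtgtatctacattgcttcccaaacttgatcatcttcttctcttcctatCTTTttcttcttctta
CYP86A2: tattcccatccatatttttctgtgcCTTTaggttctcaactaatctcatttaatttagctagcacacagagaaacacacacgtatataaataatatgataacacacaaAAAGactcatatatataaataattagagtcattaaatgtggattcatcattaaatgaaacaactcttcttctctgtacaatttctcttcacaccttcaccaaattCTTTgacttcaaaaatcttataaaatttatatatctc
Counting both strands, AAAG occurred 4 times before ABCG6, 3 times before GPAT5, 7 times before MYB9 and 3 times before CYP86A2. It occurred in 33 of the 34 members' promoters, with a median of 3 matches, and in 98.0% of the 27443 promoters of protein-coding genes of the same length, with a median of 4. The motif ACCNANC, the AC element bound by MYB proteins of phenylpropanoid and wall pathways, was found on either strand in 12 of the 34 promoters (35.3%) and in 27.8% of all of them. ABCG6 held 1 such match, and GPAT5, MYB9 and CYP86A2 held none. Matches of the 2 motifs may share a base, and a match is a description of the letters only.

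The most abundant barrier transcript at this age was a cutin gene. DCR (AT5G23940), a BAHD acyltransferase required for cutin, stood at 186 CPM per kb in dof4.1-3 and 182 CPM per kb in Col-0. The next places were taken by ASFT and HB25, in this order in dof4.1-3 and in the other order in Col-0. The level of ASFT (AT5G41040), the feruloyl transferase that adds ferulate to aliphatic suberin, was 73.5 CPM per kb in dof4.1-3 and 50.5 CPM per kb in Col-0. HB25, a zinc finger homeodomain factor of seed coat lipid barriers that serves both branches, had 65.6 CPM per kb in dof4.1-3 and 80.3 CPM per kb in Col-0. ABCG11, a transporter needed for cutin, wax and suberin, had 20.8 CPM per kb in dof4.1-3 and 21.9 CPM per kb in Col-0.

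**Figure D1:**
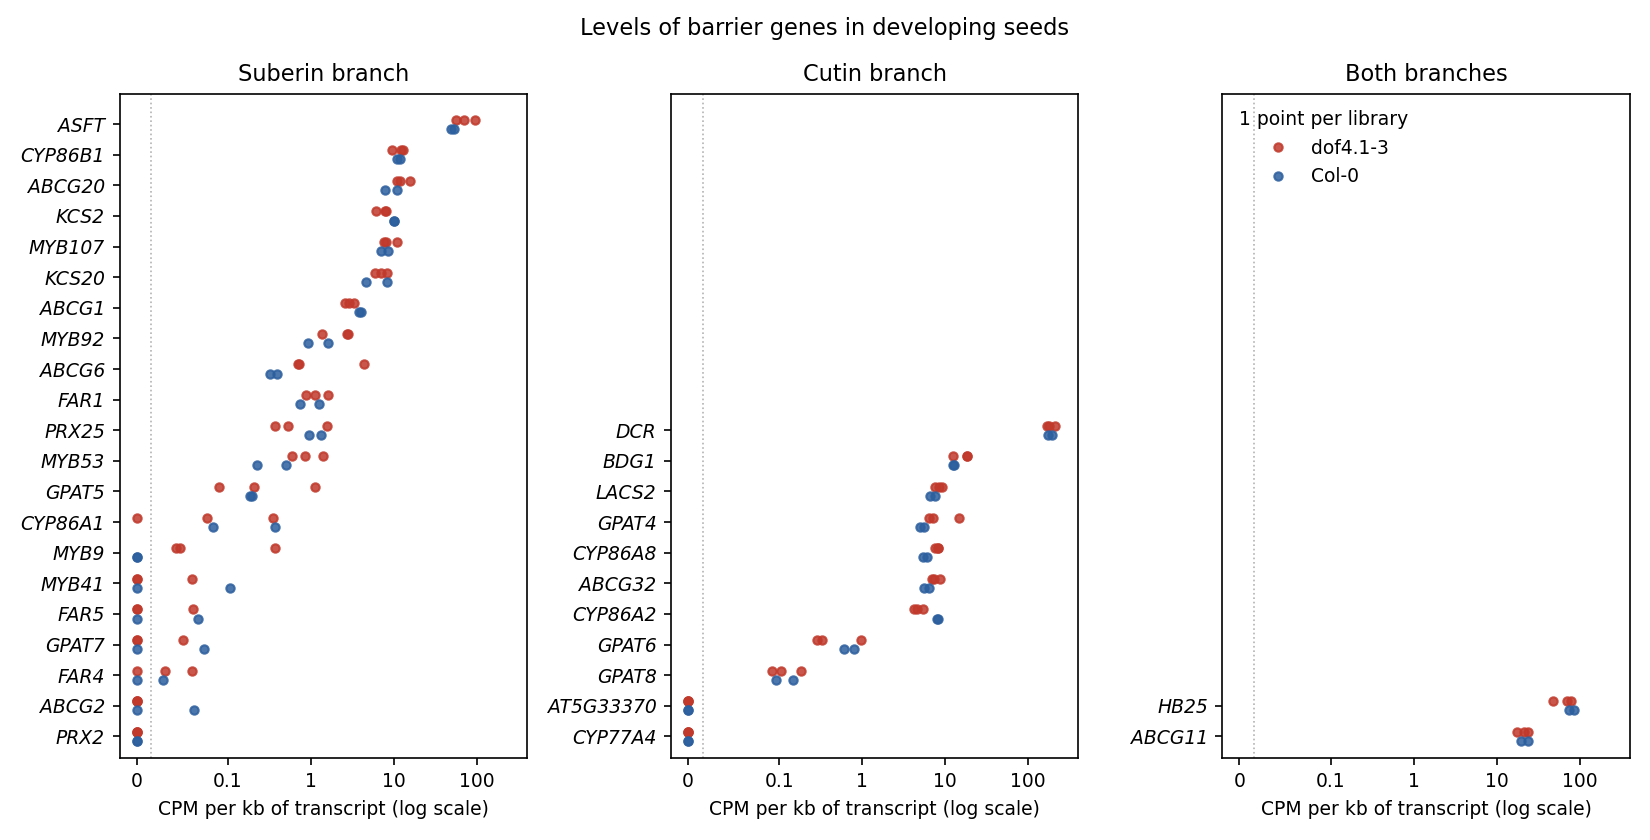
Level of each of the 34 genes in CPM per kb of transcript, on a log axis, with 1 point per library, red for dof4.1-3 (3 libraries) and blue for Col-0 (2 libraries); counts of 0 stand left of the dotted line. Levels span from no count up to DCR, which averaged about 186 CPM per kb in dof4.1-3, and the genotypes mostly share the same place on the scale.

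Within the suberin branch, some genes of ferulate transfer, hydroxylation, elongation, transport and regulation were at clear levels, and others of these classes were near the limit of detection. Neither glycerol acyltransferase was at a clear level. Levels of CYP86B1, the hydroxylase of very-long-chain acids, were 11.5 CPM per kb in dof4.1-3 and 11.5 CPM per kb in Col-0. The transporter gene ABCG20 stood at 12.7 CPM per kb in dof4.1-3 and 9.43 CPM per kb in Col-0, and did not differ from CYP86B1 beyond the spread of the libraries. KCS2 and KCS20, elongases with overlapping roles, and MYB107, a MYB regulator of seed coat suberin, lay between 6.38 and 10.1 CPM per kb in either genotype. Lower still were ABCG1, MYB92, FAR1, PRX25, MYB53 and ABCG6, whose group means ran from 0.355 to 3.90 CPM per kb.

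The remaining suberin genes were near the limit of detection. A count of 0 in a library allows up to 3 counts, which is between 0.137 and 0.185 CPM in these libraries. Over all 5 libraries together, GPAT7, a glycerol-3-phosphate acyltransferase close to GPAT5, had 3 counts, and FAR4 and FAR5, neighbouring reductase genes for suberin fatty alcohols, had 4 counts each. MYB41, a factor that can switch on suberin synthesis, had 4 counts and the transporter gene ABCG2 had 2. CYP86A1, the omega-hydroxylase of root suberin, had 0, 12 and 2 counts in dof4.1-3 and 2 and 14 counts in Col-0. PRX2, a peroxidase of seed coat suberin, had no count.

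These low values carry limits of counting. Every exonic stretch of 50 bases of PRX2 also occurs elsewhere in the genome, where the neighbouring peroxidase gene AT1G05240 is its near copy, so reads of PRX2 could not be placed uniquely. That neighbour had 0, 0 and 3 counts in dof4.1-3 and 0 and 2 counts in Col-0. In no other member was the share of such stretches above 0.696%. Reads were counted without strand, and reads in exons of overlapping genes are set aside as ambiguous. In the TAIR10.1 annotation, 14 of the 34 members overlap another gene, 11 of them only on the opposite strand. Exons of other genes cover 100% of the exon bases of CYP77A4, 95.3% of those of ABCG2, 61.5% of those of KCS2, 59.3% of those of MYB9 and 35.3% of those of CYP86A2, so levels of these 5 genes may be underestimated.

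In the cutin branch, 7 of the 8 tested genes were at clear levels. BDG1, a hydrolase of cuticle formation, averaged 16.3 CPM per kb in dof4.1-3 and 12.7 CPM per kb in Col-0. GPAT4 (a glycerol-3-phosphate acyltransferase), LACS2 (an acyl-CoA synthetase), CYP86A8 and CYP86A2 (omega-hydroxylases) and ABCG32 (an exporter of cutin precursors) lay between 4.75 and 9.35 CPM per kb in either genotype. GPAT6, known from the cutin of flowers, averaged 0.532 CPM per kb in dof4.1-3 and 0.705 CPM per kb in Col-0. GPAT8, which acts together with GPAT4 in leaves and stems, had 8, 3 and 4 counts in dof4.1-3 and 3 and 6 counts in Col-0. CYP77A4, a fatty acid epoxygenase, and AT5G33370, which encodes a GDSL-like lipase/acylhydrolase, had no count in any library.

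In each branch sum, given in CPM and not scaled by transcript length, a single gene held the largest share. The 21 suberin genes together had 214.9, 315.1 and 235.7 CPM in dof4.1-3 replicates 1, 2 and 3, and 206.2 and 201.7 CPM in Col-0. ASFT made up 47.6% of this sum. Without ASFT, the other 20 suberin genes had 117.3, 150.3 and 115.0 CPM in dof4.1-3, against 114.7 and 117.8 CPM in Col-0. Only replicate 2 exceeded both Col-0 libraries. For the 11 cutin genes the sums were 489.7, 470.4 and 545.8 CPM in dof4.1-3 and 446.5 and 493.9 CPM in Col-0, with 73.4% of the sum from DCR. Without DCR, the other 10 cutin genes had 142.8, 140.6 and 137.5 CPM in dof4.1-3, above the 111.8 and 119.1 CPM in Col-0. These sums are descriptions and were not tested.

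**Figure D2:**
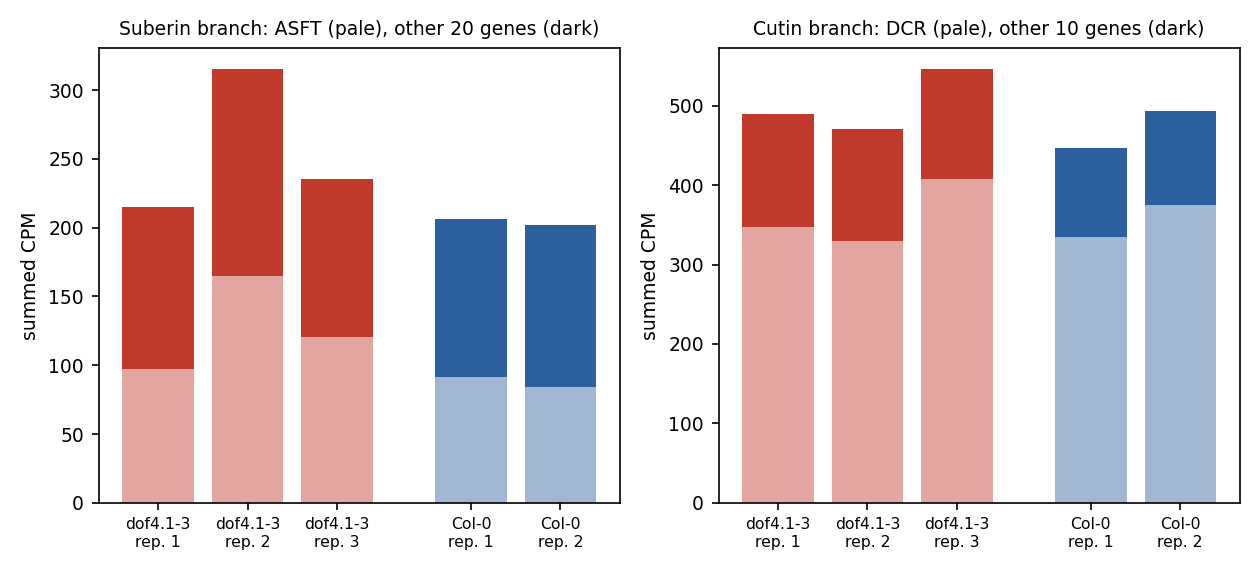
Summed CPM of the suberin branch (left) and the cutin branch (right) in each library, with red bars for dof4.1-3 and blue bars for Col-0; the pale part is ASFT or DCR and the dark part the other genes of the branch. The tallest suberin bar is dof4.1-3 replicate 2 at 315.1 CPM, while the cutin bars run from 446.5 to 545.8 CPM.

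When the genotypes were compared, none of the 23 tested barrier genes passed the test. With edgeR's quasi-likelihood test and adjustment over all 19003 tested genes, 0 of the 23 tested members had an adjusted p under 0.05, where 23 genes (0.121%) were higher and 183 (0.963%) lower in dof4.1-3 over the whole table, 206 (1.08%) in either direction. At an unadjusted p under 0.05, 4 of the 23 were higher and 2 lower, against 6.33% of all tested genes that were higher and 9.52% that were lower. DESeq2, run as an alternative, called 1 member higher (ABCG6) and 1 lower (CYP86A2), where it called 1.36% of all tested genes higher and 3.29% lower, and limma-voom called 0 members. The fitted log2 fold change was above 0 in 14 of the 23 members and in 52.6% of all tested genes. The median was 0.19 over the 13 tested suberin genes, 0.30 over the 8 tested cutin genes and 0.03 over all tested genes. The suberin median moved with single libraries, at 0.021 without dof4.1-3 replicate 2, 0.29 without dof4.1-3 replicate 3, 0.069 without Col-0 replicate 1 and 0.62 without Col-0 replicate 2, and it was 0.30 with the replicate number as a block.

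The ranges of the genotypes were separate for some of these genes. Every dof4.1-3 library was above both Col-0 libraries in 7 of the 23 tested members, as in 16.3% of all tested genes, and below both in 3 of the 23, as in 18.3% of all. The 7 were ABCG6, MYB53 and ASFT in the suberin branch and GPAT4, CYP86A8, ABCG32 and LACS2 in the cutin branch. The 3 were KCS2 and ABCG1 in the suberin branch and CYP86A2 in the cutin branch.

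**Figure D3:**
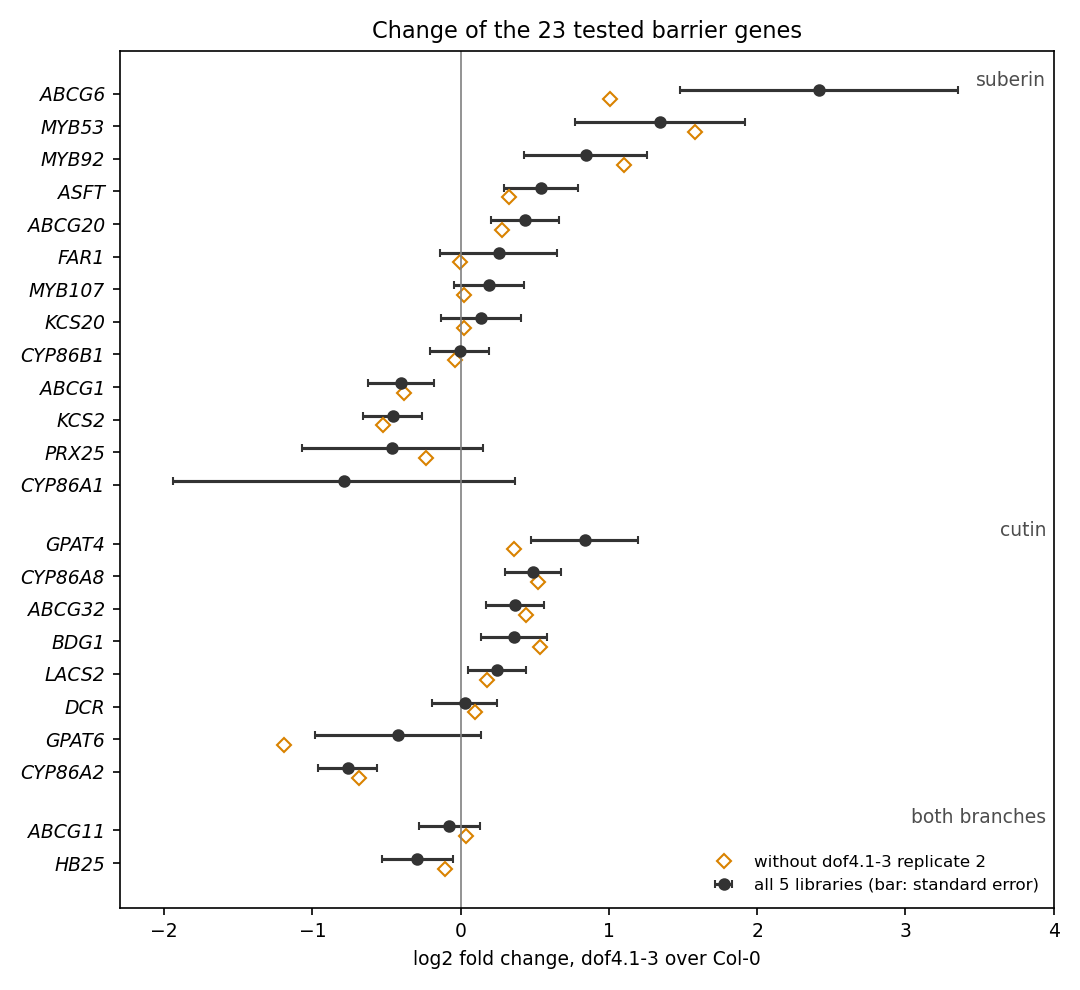
Log2 fold change (dof4.1-3 over Col-0) of the 23 tested genes, with black points and bars for the fit of all 5 libraries and its standard error, and open diamonds for the fit without dof4.1-3 replicate 2, in which CYP86A1 did not pass the filter. ABCG6 lies farthest right at 2.42 and moves to 1.00 without that library, while CYP86A2 is at -0.76 and moves to -0.68.

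ABCG6 (AT5G13580; chromosome 5, 4370692 to 4373201), a transporter needed for suberin, had the largest difference. Its level was 1.78, 10.9 and 1.82 CPM in dof4.1-3 replicates 1, 2 and 3, against 0.802 and 0.980 CPM in Col-0. All 3 mutant libraries lay above both wild type libraries, and replicate 2 lay far above the other mutant libraries. The log2 fold change was 2.42 with a standard error of 0.94, p was 0.0369 and adjusted p 0.278 (edgeR, n = 3 and 2). The paper, which used DESeq2, had already reported ABCG6 as upregulated in these same libraries. With DESeq2 here the adjusted p was 0.0292, so that call repeats the paper's and the main edgeR fit did not reach it. The adjusted p was 0.0332 in edgeR with a replicate block. In that block fit dof4.1-3 replicate 3 has no Col-0 library of its number, so the genotype effect rests on replicates 1 and 2 alone. Without dof4.1-3 replicate 2 the log2 fold change was 1.00 and the adjusted p 0.190.

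A few other suberin genes were highest in that same library. GPAT5 (AT3G11430), the glycerol-3-phosphate acyltransferase of suberin in roots and seed coats, had 9, 41 and 3 counts in dof4.1-3 replicates 1, 2 and 3, against 6 and 8 counts in Col-0. The groups overlap, and GPAT5 did not pass the filter. MYB9 (AT5G16770), a MYB factor of seed coat suberin, had 1, 13 and 1 counts in dof4.1-3, against no count in either Col-0 library. Apart from replicate 2, both mutant libraries of MYB9 held a single count, within what a count of 0 allows.

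Among the 14 suberin genes with at least 20 counts in all, 6 had their highest CPM in dof4.1-3 replicate 2, as had 9 of 25 members in either branch and 20.2% of all tested genes. The 6 were ABCG6, GPAT5, ASFT, FAR1, ABCG20 and MYB107. The peak was not particular to suberin genes. With the same minimum of counts, it was seen in 7 of 9 phenylpropanoid, 4 of 6 further suberin and 4 of 8 wax genes. Further cutin genes had it in 6 of 14 and genes of the elongase core in 1 of 3. The 9 embryo markers, mainly storage protein and oleosin genes, summed to 106421, 248289 and 171167 CPM in dof4.1-3 replicates 1, 2 and 3, against 85956 and 45801 CPM in Col-0. This sum was highest in replicate 2, as were 5 of the 9 markers singly. Their part in the suberin values of that library was not tested.

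**Figure D4:**
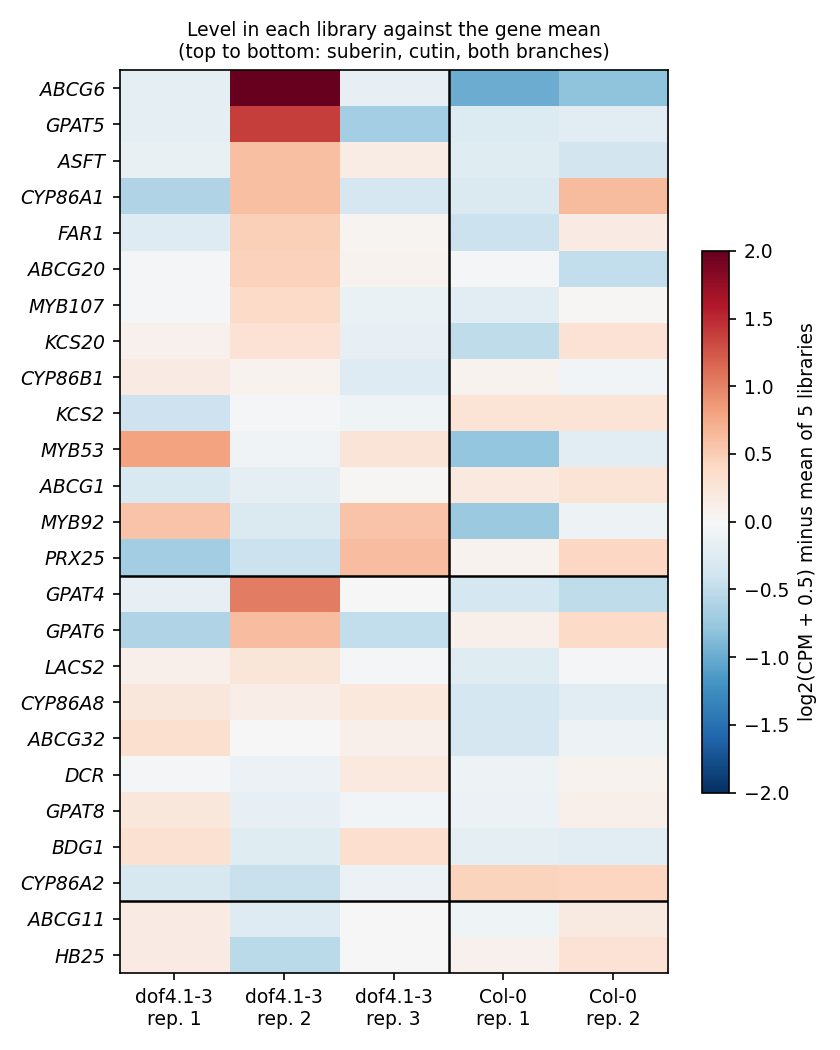
Log2(CPM + 0.5) of the 25 members with at least 20 counts, minus the mean of the gene over the 5 libraries, with dof4.1-3 on the left and Col-0 on the right; red is above and blue below the mean, and colours stop at 2. The second column, dof4.1-3 replicate 2, is the reddest for ABCG6, GPAT5 and GPAT4, and CYP86A2 is red only in the Col-0 columns.

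ASFT, the leading suberin transcript, was at 97.6, 164.9 and 120.8 CPM in dof4.1-3 and at 91.5 and 83.8 CPM in Col-0. Every mutant library was higher than both wild type libraries, but replicate 1 only by a small margin. The log2 fold change was 0.54 with a standard error of 0.25 and an adjusted p of 0.327, and it was 0.32 without dof4.1-3 replicate 2. ABCG20 had 31.1, 43.9 and 33.3 CPM in dof4.1-3, and 31.2 and 22.3 CPM in Col-0, with overlapping groups and a log2 fold change of 0.43 (standard error 0.23).

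MYB92 and MYB53, related MYB factors of suberin synthesis, had their highest levels outside replicate 2. MYB53 (AT5G65230) had 1.91, 0.814 and 1.14 CPM in dof4.1-3, against 0.308 and 0.686 CPM in Col-0. The ranges do not overlap, though the levels are low, at 5 to 42 counts. Its log2 fold change was 1.34 with a standard error of 0.57 and an adjusted p of 0.294. MYB92 had 4.24, 2.12 and 4.26 CPM in dof4.1-3 and 1.42 and 2.50 CPM in Col-0, so that the lowest mutant library fell between the wild type libraries. Its log2 fold change was 0.84 with a standard error of 0.42 and an adjusted p of 0.363. Each of these genes overlaps a gene on the same strand. AT5G65225 beside MYB53 had 7, 1 and 4 counts in dof4.1-3 and 0 and 2 in Col-0, and AT5G10278 beside MYB92 had 42, 6 and 15 counts in dof4.1-3 and 2 and 6 in Col-0. MYB107 differed by a log2 fold change of 0.19 (standard error 0.24) with overlapping groups.

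No gene of elongation or oxidation in the suberin branch passed the test. KCS2 stood at 12.6, 16.5 and 15.9 CPM in dof4.1-3, below the 20.7 and 20.6 CPM of Col-0. Its log2 fold change was -0.46 with a standard error of 0.20 and an adjusted p of 0.307. For its partner KCS20 the log2 fold change was 0.14 (standard error 0.27), and the mutant libraries fell within the spread of the wild type. CYP86B1 had 29.8, 28.0 and 22.3 CPM in dof4.1-3 and 28.0 and 25.7 CPM in Col-0, and the log2 fold change was -0.01 (standard error 0.20). The log2 fold changes of FAR1 (0.26), PRX25 (-0.46) and CYP86A1 (-0.79) were smaller than their standard errors of 0.40, 0.61 and 1.16. ABCG1 had a log2 fold change of -0.40 with a standard error of 0.22, with 6.47, 7.16 and 8.26 CPM in dof4.1-3, all below the 9.37 and 9.90 CPM of Col-0.

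In the cutin branch the lowest p-value belonged to CYP86A2 (AT4G00360; chromosome 4, 160643 to 163023), an omega-hydroxylase of cutin. It had 10.2, 9.44 and 11.9 CPM in dof4.1-3, against 17.9 and 17.7 CPM in Col-0. The wild type libraries were close together and well above all 3 mutant libraries. Its log2 fold change was -0.76 with a standard error of 0.20, p was 0.00349 and adjusted p 0.105 (edgeR), and DESeq2 gave an adjusted p of 0.0459. In the fit without each library in turn the log2 fold change lay between -0.86 and -0.68. CYP86A2 lies 239.9 kb from DOF4.1 on chromosome 4 and overlaps 2 genes on the opposite strand. AT4G03585 covers 35.3% of its exon bases and had no count in any library. AT4G00370 covers 5.73% of them and had 2042, 1050 and 1258 counts in dof4.1-3 and 865 and 1314 counts in Col-0. GPAT8, at 226 kb from DOF4.1, had too few counts to compare.

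The paralogous hydroxylase CYP86A8 had its higher levels in the mutant. It stood at 21.7, 20.2 and 21.3 CPM in dof4.1-3 and 14.3 and 15.8 CPM in Col-0, with tight and separate groups. The log2 fold change was 0.49 with a standard error of 0.19, p was 0.0273 and adjusted p 0.250. GPAT4 (AT1G01610) had 12.2, 28.1 and 13.5 CPM in dof4.1-3, against 10.6 and 9.46 CPM in Col-0, and replicate 2 was again its highest library. Its log2 fold change was 0.84 with a standard error of 0.36 and an adjusted p of 0.302, and it was 0.36 without dof4.1-3 replicate 2.

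ABCG32 and LACS2 also had separate groups, LACS2 by a narrow margin. ABCG32 had 43.0, 34.6 and 36.7 CPM in dof4.1-3 and 27.1 and 31.8 CPM in Col-0, a log2 fold change of 0.37 with a standard error of 0.20. LACS2 had 20.96, 23.16 and 19.01 CPM in dof4.1-3 and 16.53 and 18.96 CPM in Col-0, a log2 fold change of 0.24 with a standard error of 0.20. BDG1 (log2 fold change 0.36, standard error 0.22) and GPAT6 (-0.42, standard error 0.56) had overlapping groups, and GPAT6 stood at -1.19 without dof4.1-3 replicate 2, its highest library. DCR, the most abundant of all, had 346.9, 329.8 and 408.3 CPM in dof4.1-3 and 334.7 and 374.8 CPM in Col-0. Its log2 fold change was 0.03 with a standard error of 0.22.

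Long transcripts were on the whole higher and short ones lower in dof4.1-3. The median log2 fold change was 0.29 in the longest 10% of tested genes and -0.31 in the shortest 10%. With this trend removed from each library, the median of the 8 cutin genes was 0.08. ABCG32, the longest member with 4956 bases, then had a log2 fold change of 0.06. The other cutin genes had 0.31 (CYP86A8), 0.10 (LACS2), 0.33 (BDG1), 0.80 (GPAT4), -0.02 (DCR), -0.50 (GPAT6) and -0.87 (CYP86A2). In the suberin branch ABCG20 had 0.23 and ASFT 0.54.

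Neither of the 2 genes that serve both branches passed the test. ABCG11 had 76.3, 56.4 and 67.7 CPM in dof4.1-3 and 63.6 and 77.1 CPM in Col-0, and the log2 fold change was -0.08 (standard error 0.21). HB25 had 122.4, 74.8 and 108.3 CPM in dof4.1-3 and 115.5 and 133.8 CPM in Col-0, and the log2 fold change was -0.29 (standard error 0.24). For both, the mutant and wild type ranges overlapped, and dof4.1-3 replicate 2 was the lowest library.

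Related pathways were read beside the barrier genes. In these lists edgeR, DESeq2 and limma-voom each called 0 genes. Of 10 further suberin genes, 5 were tested and 0 had an unadjusted p under 0.05, with a median log2 fold change of 0.41 that ran from 0.089 without Col-0 replicate 2 to 0.87 without Col-0 replicate 1. The NAC factor NAC046 (-0.73, adjusted p 0.376) and the elongase KCS17 (0.86, adjusted p 0.438) had the smallest p-values there. Of 18 further cutin genes, 13 were tested and 2 were higher at an unadjusted p under 0.05, against 6.33% of all tested genes. The median of the 13 was 0.16 and ran from -0.0023 without Col-0 replicate 2 to 0.40 without Col-0 replicate 1. For PDF2, a homeodomain regulator of epidermal identity, the log2 fold change was 0.56 (adjusted p 0.247), and for CYP86A4, a hydroxylase of flower cutin, it was 0.79 (adjusted p 0.291).

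Among wax genes most fitted changes were below 0. Of 8 wax genes tested, 2 were lower at an unadjusted p under 0.05, against 9.52% of all tested genes. A log2 fold change below 0 was seen in 7 of the 8, against 9011 of all 19003 tested genes, and the wax median was -0.18. This median was 0.018 without dof4.1-3 replicate 1, -0.38 without dof4.1-3 replicate 2 and -0.040 without Col-0 replicate 2, so its sign turned on a single library. CER5, a wax exporter of the ABCG family, had 73.0 CPM on average in dof4.1-3 and 113.7 CPM in Col-0, a log2 fold change of -0.64 (adjusted p 0.183). CER6, the elongase of wax chains, had 293.6 CPM in dof4.1-3 and 471.5 CPM in Col-0, a log2 fold change of -0.68 (adjusted p 0.200). For both, every mutant library was below both wild type libraries.

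The 3 tested genes of the elongase core had a median of 0.18 (0.086 without dof4.1-3 replicate 1), with 0 at an unadjusted p under 0.05. The log2 fold change of KCR1, its ketoacyl-CoA reductase, was 0.43 (adjusted p 0.359), and that of CER10, its enoyl-CoA reductase, was 0.18 (adjusted p 0.707). All 9 phenylpropanoid genes were tested, with 1 higher at an unadjusted p under 0.05, against 6.33% of all tested genes. The median of the 9 was 0.01 (-0.094 without dof4.1-3 replicate 2). For PAL2, one of the genes that open that pathway, the log2 fold change was 0.48 (adjusted p 0.272), and for 4CL1, a ligase further down, it was 0.49 (adjusted p 0.357).

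**Figure D5:**
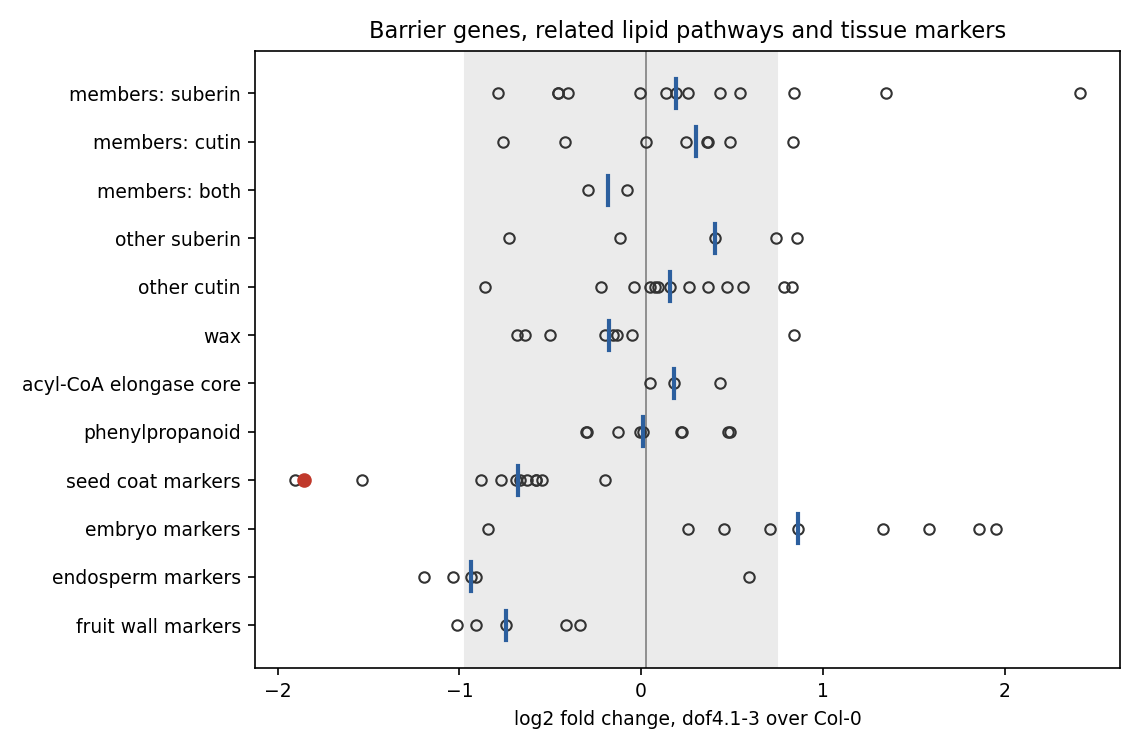
Log2 fold change (dof4.1-3 over Col-0) of the tested genes of each list, from the barrier genes down to tissue markers; open circles did not pass the test, the filled red circle (BAN) did, blue bars are medians, and the grey band holds the middle of all tested genes, from -0.97 (percentile 5) to 0.75 (percentile 95). Suberin and cutin genes spread to both sides of the grey line, the median of all genes, while seed coat markers lie left of it and most embryo markers right.

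Marker genes of the seed tissues were read in the same fit, and edgeR called 1 of them. Of 13 markers of the seed coat, 12 were tested. For all 12 the dof4.1-3 libraries lay below both of the Col-0 libraries, as in 18.3% of all tested genes. The paper had reported MUM4, MYB61, MUCI10 and PMEI6 of this list as downregulated in these same libraries, so their direction was known beforehand. By edgeR only BAN, an enzyme of coat tannin synthesis, was called (log2 fold change -1.85, adjusted p 0.0105). DESeq2 called 6 lower, against 3.29% of all tested genes, and limma-voom 1. Together the 13 had 1790, 1735 and 1901 CPM in dof4.1-3, against 2915 and 2491 CPM in Col-0, and none was at 0 in all libraries. Of 9 embryo markers, all tested, 8 had a log2 fold change above 0, against 52.6% of all tested genes. The cruciferin genes CRA, CRB and CRC and the regulator ABI3 among them had been reported by the paper as upregulated in these same libraries. By edgeR and limma-voom 0 of the embryo markers were called, and by DESeq2 4 were higher, against 1.36% of all tested genes. At an unadjusted p under 0.05 in edgeR 5 were higher and 1 lower, against 6.33% and 9.52% of all tested genes. Embryo, endosperm and coat were not separated. A different share of cells of a type and a different level of these genes within each cell, for whatever reason, therefore cannot be told apart. The marker values are no measure of tissue share, and their part in the levels of suberin and cutin genes was not tested.

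Among markers of tissues outside the seed, the fruit wall marker FUL had the highest level. FUL stood at 8.08 CPM per kb in dof4.1-3 and 15.2 CPM per kb in Col-0, where CYP86B1 had 11.5 CPM per kb in either genotype. The fruit wall markers NST1, NST3 and IND lay between 1.84 and 3.69 CPM per kb in either genotype. That is within the range of the lower suberin genes from ABCG6 to ABCG1, 0.355 to 3.90 CPM per kb. ALC was lower, at 0.402 CPM per kb in dof4.1-3 and 0.670 CPM per kb in Col-0. All 5 fruit wall markers had a log2 fold change below 0, and the part of fruit wall tissue in the libraries was not tested. The 5 fruit wall markers together had 17.1, 26.5 and 16.1 CPM in dof4.1-3 and 32.4 and 35.0 CPM in Col-0. By edgeR, DESeq2 and limma-voom 0 of them were called, and 2 were lower at an unadjusted p under 0.05, against 9.52% of all tested genes. Of the root endodermis markers, where the best known suberin layer is formed, CASP1 had no count in any library, and the 3 together had 1.05, 0.922 and 0.779 CPM in dof4.1-3 and 0.247 and 0.637 CPM in Col-0. The endosperm markers summed to 6433, 6010 and 16593 CPM in dof4.1-3 and 6309 and 6725 CPM in Col-0, nearly all of it from EPR1. Of the 5 tested, edgeR and limma-voom called 0 and DESeq2 2 lower, against 3.29% of all tested genes by DESeq2. At an unadjusted p under 0.05 in edgeR 3 were lower, against 9.52% of all tested genes.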

How the data were processed

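RNA of developing seeds was sequenced by the authors in 3 dof4.1-3 and 2 Col-0 libraries, grouped here by the genotype in the labels. An age of 9 days after pollination stands in the labels and in the methods, while another passage of the paper differs. Paired reads of 50 bases were trimmed (cutadapt), inspected (FastQC), aligned to TAIR10 (HISAT2) and assigned to genes (HTSeq) by the authors, and the deposited file holds the raw counts, made without strand. Tool versions and annotation release: not given in the sources used here. In all the table has 37336 genes, 5 summary lines and 9 blank lines. Reads without a feature (0.727% to 1.74%) and ambiguous reads (3.09% to 3.92%) stayed out of library sizes.

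The default filterByExpr filter and TMM scaling came before the test in edgeR 4.0.16 (quasi-likelihood F test, robust=TRUE, genotype as the only term, Benjamini-Hochberg over all 19003 tested genes, call at an adjusted p under 0.05) in R 4.3.3. The standard error is the log2 fold change divided by the square root of F. CPM were counts over TMM-scaled library size. An exact permutation test of 2 against 3 libraries cannot go below 0.1, so calls rest on the adjusted p. Alternatives were DESeq2 1.42.0, limma-voom (limma 3.58.1), RLE and upper-quartile factors, TMM without the 50 most abundant genes, no filter, at least 10 counts in every library, robust=FALSE, each library left out, the replicate number as a block, a lowess trend over transcript length (span 0.3) removed, and block and length together. The script was tested on simulated data. Limits that a count of 0 allows cover counting error only. No pair of libraries was a duplicate.

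Members, lists and tests were chosen with earlier results of these data known. All 34 members are named. Of each other list every called gene (up to 4) and up to 2 others with the smallest p are named, and markers only beside a result. Coordinates, lengths and sequences are from RefSeq TAIR10.1. Plots were made in Python 3.11.15 with matplotlib 3.10.9.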

Additional observations from a re-analysis of the deposited data

How the results depend on the processing

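The main limits are 2 Col-0 libraries, low counts for 11 of the 34 members, and dof4.1-3 replicate 2. No suberin or cutin gene was called under 14 of the 16 alternatives. ABCG6 was called with DESeq2 and with the replicate block, 1 suberin gene higher in each, and CYP86A2 with DESeq2, 1 cutin gene lower. The block fit compares only libraries whose number occurs in both genotypes. For ABCG6 the log2 fold change lay between 1.00 and 2.82 with single libraries left out, and for CYP86A2 between -0.86 and -0.68.

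Over all genes the count of higher and lower calls was 258 and 625 with DESeq2, 170 and 565 without the filter, 12 and 51 with the length trend removed, and 2 and 2 with the replicate block and the length trend removed. With the replicate block alone it was 29 and 175. With 1 library left out it ran from 0 to 181 higher and from 0 to 707 lower, lowest without Col-0 replicate 2 and highest without dof4.1-3 replicate 2. Whether numbers 1 and 2 pair the libraries is not given. Deviations of same-numbered libraries from their group means correlated at -0.25 and -0.29 across genes. With only 2 Col-0 libraries the deviations of one mirror those of the other, so this check cannot decide on pairing.

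The median log2 fold change of the suberin genes lay between 0.021 and 0.62 with single libraries left out, highest without Col-0 replicate 2. That of the cutin genes lay between 0.21 and 0.35, and was 0.077 with the length trend removed and 0.11 with block and length together.

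Of 364 results of single members under an alternative, 346 kept direction and side of the threshold, 3 passed it and 15 changed sign, none of the 15 past the threshold. With single libraries left out the log2 fold change ran from -1.47 to 0.94 for CYP86A1, from -0.091 to 0.11 for CYP86B1, from -0.052 to 0.69 for FAR1, from -0.21 to 0.62 for KCS20, from -0.067 to 0.11 for DCR and from -0.20 to 0.070 for ABCG11. CYP86B1 had 0.0057 without the filter and 0.11 with the replicate block. DCR had -0.066 with the replicate block, -0.023 with the length trend removed and -0.12 with both. The causes were not tested.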
